A study of Mus musculus with 56 samples.

Results

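The triglyceride synthesis enzymes are 10 listed genes that activate fatty acids and build glycerolipids in the liver (Acsl1, Acsl5, Gpam, Agpat2, Lpin1, Lpin2, Mogat1, Dgat1, Dgat2 and Pnpla3). They were chosen by name out of 52230 genes with summed reads, with earlier results of these data known. All 10 passed the filter on low counts in every comparison. The livers were from 56 male P446L mice, a genome-edited line on B6N in which residue 446 of GKRP, the glucokinase regulatory protein encoded by Gckr, is either proline (P) or leucine (L) in every tissue. Each mouse was kept for 20 weeks on food with 45% fat and on drinking water with 10% glucose and 5% fructose (HFHSD), and was 28 weeks old at harvest. The groups without activator were PP (n = 10), PL (n = 8) and LL (n = 10), and the groups given a glucokinase activator (GKA, 3 mg/kg) in the same diet were PP + GKA (n = 10), PL + GKA (n = 8) and LL + GKA (n = 10). PP mouse 7, which the authors removed from their own work because its expression stood apart, was left out here, so that 55 livers were compared, 9 of them in PP. No group had a diet without the high fat and sugar, so all values are from livers under this diet. Whether mice shared a litter, a processing batch or a time of day at harvest is not given in the sources used here. The p-values measure the spread between these animals.

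Fatty acids enter this pathway as acyl-CoA, made by long-chain acyl-CoA synthetases. Gpam, the mitochondrial glycerol-3-phosphate acyltransferase, adds the first acyl chain to glycerol-3-phosphate, Agpat2 adds the next to give phosphatidic acid, and lipins remove the phosphate to give diacylglycerol. The diacylglycerol acyltransferases complete triglyceride, which the hepatocyte stores in lipid droplets or exports in very-low-density lipoprotein. Insulin and sugars raise transcription of several of these genes through SREBP1c and ChREBP, the products of Srebf1 and Mlxipl.

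Reads assigned to transcripts numbered between 5189852 and 8093368 per mouse (median 6555851). Liver identity was clear: the summed level of 7 hepatocyte markers was between 74300 and 130000 CPM (read counts scaled to library size by the TMM method), while 6 adipocyte markers summed to at most 6.16 CPM, with Adipoq and Lep at 0 in all 55 livers. Markers of the exocrine pancreas summed to at most 0.638 CPM and those of skeletal muscle to at most 0.795 CPM. The other lists were present at lower and more variable levels, with sums from 66.5 to 482 CPM for 6 macrophage markers, from 99.8 to 313 CPM for 6 stellate and fibroblast markers, from 68.8 to 159 CPM for 6 endothelial markers, from 6.93 to 96.6 CPM for 6 cholangiocyte markers, from 284 to 2960 CPM for 5 blood cell markers and from 0.186 to 3.71 CPM for 6 lymphocyte markers. In whole liver, fewer cells of a type and less RNA per cell cannot be told apart.

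The enzymes spanned a wide range of abundance. Per transcript length (TPM, which scales reads by transcript length and depth), the median over 55 mice was highest for Acsl1 (209 TPM), Acsl5 (202 TPM) and Dgat2 (176 TPM), followed by Agpat2 (105 TPM), Gpam (42.3 TPM) and Lpin2 (28.9 TPM). Dgat1 (8.48 TPM), Lpin1 (6.51 TPM), Mogat1 (3.35 TPM) and Pnpla3 (2.77 TPM) were the least abundant. Neighbours in this order were not always separated: Acsl1 was above Acsl5 in 31 of 55 mice, Acsl5 above Dgat2 in 33, Gpam above Lpin2 in 40, Dgat1 above Lpin1 in 37, Lpin1 above Mogat1 in 43 and Mogat1 above Pnpla3 in 28. The steps from Dgat2 to Agpat2, from Agpat2 to Gpam and from Lpin2 to Dgat1 held in 51, 52 and 53 of 55 mice. Dgat2 was thus the more abundant diacylglycerol acyltransferase transcript in these livers, and Lpin2 the more abundant lipin transcript. Gene TPM also gives weight to short transcripts with few reads. In PP mice the transcript of Acsl5 with most reads held on average 86.1% of its reads but 22% of its TPM. These shares were 87.1% and 40.6% for Acsl1, and 93.1% and 50.4% for Dgat2. The order of these enzymes, and values on the TPM scale below, therefore depend on how reads were assigned to transcripts.

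The enzymes also differed in how much they varied between mice. Within groups, the SD of log2 CPM was smallest for Dgat2 (0.212), Acsl5 (0.269), Dgat1 (0.275), Agpat2 (0.300) and Acsl1 (0.345), and larger for Lpin2 (0.415), Gpam (0.627), Lpin1 (0.797), Mogat1 (1.03) and Pnpla3 (1.31). Dgat2 ranged from 270 to 530 CPM over all mice, whereas Gpam ranged from 125 to 855 CPM and Lpin1 from 17.9 to 257 CPM. Pnpla3 had between 0 and 133 reads per mouse and Mogat1 between 1 and 62, so counting error adds to their spread. Dgat1 had only 38 to 102 reads but varied little.

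Positions are given in GRCm39. Acsl1 (chromosome 8, 46924063 to 46990145) and Acsl5 (chromosome 19, 55240267 to 55286153) are acyl-CoA synthetases. Gpam (chromosome 19, 55055700 to 55115784) and Agpat2 (chromosome 2, 26483061 to 26494637) are acyltransferases of the glycerol phosphate pathway. The lipins are Lpin1 (chromosome 12, 16584818 to 16703913) and Lpin2 (chromosome 17, 71489555 to 71556909). Mogat1 (chromosome 1, 78487628 to 78514810) acylates monoacylglycerol, and Dgat1 (chromosome 15, 76385083 to 76396476) and Dgat2 (chromosome 7, 98802491 to 98831991) acylate diacylglycerol. Pnpla3 (chromosome 15, 84051943 to 84073723) is a lipid droplet protein related to adipose triglyceride lipase. Exons of some of these genes overlap those of a gene on the other strand, and the reads cannot be assigned with certainty where strand was not used: Hsf1 had 65.8% as many reads as Dgat1, BC035947 had 9% as many as Mogat1, Zdhhc6 had 8.77% as many as Acsl5 and Egfl7 had 6.01% as many as Agpat2. Gm49513, with 10.7% as many reads as Pnpla3, overlaps it on the same strand, where strand does not separate the reads. The value of Dgat1 is therefore the least certain of the enzymes with respect to its neighbours.

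Gpam, Pnpla3 and Acsl5 varied most closely together with one another among the members other than the lipins, and the sequence before their starts is shown for that reason. The sequences are from the RefSeq promoter table (GRCm38.p6), in which 8 of the 10 genes have an entry (Dgat1 and Dgat2 are named only). Each runs 5′ to 3′ on the strand of the gene and ends before the start of the transcripts that held its reads, which leaves 250 bases for Gpam, 181 for Pnpla3 and 142 for Acsl5. Capitals mark matches on either strand to 5 motifs: CCAAT (the NF-Y motif), GGGCGG (GC box), CACGTG (E-box), TCACNCCAC (a sterol regulatory element) and TTATGTAA (D-box). None of the matches in capitals overlap.
Gpam, chr19:55127239-55127488, minus strand: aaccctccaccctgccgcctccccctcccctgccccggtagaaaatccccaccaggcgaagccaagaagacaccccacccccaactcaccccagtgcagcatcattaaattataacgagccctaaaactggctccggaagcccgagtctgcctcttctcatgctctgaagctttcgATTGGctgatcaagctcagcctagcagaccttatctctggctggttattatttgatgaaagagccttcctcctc
Pnpla3, chr15:84167566-84167746, plus strand: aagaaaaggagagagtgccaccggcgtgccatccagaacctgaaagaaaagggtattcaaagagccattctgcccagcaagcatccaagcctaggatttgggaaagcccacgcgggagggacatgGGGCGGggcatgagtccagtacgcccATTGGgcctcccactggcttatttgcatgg
Acsl5, chr19:55253119-55253260, plus strand: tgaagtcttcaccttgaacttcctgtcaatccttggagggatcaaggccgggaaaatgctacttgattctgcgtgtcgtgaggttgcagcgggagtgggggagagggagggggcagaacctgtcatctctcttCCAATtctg
Each of the 3 sequences held the NF-Y motif once, on the plus strand of the gene in Acsl5 (CCAAT) and on the other in Gpam and Pnpla3 (ATTGG). Of 32851 promoter windows cut to the same stretch, 33.8% held it at the length shown for Gpam, 25.2% at that for Pnpla3 and 18.9% at that for Acsl5. At the Pnpla3 and Acsl5 lengths, the 69 and 108 bases nearest the RefSeq start were left out of every window. The Pnpla3 and Acsl5 sequences end at transcript starts of their own, so these shares are not matched for distance to the start in use. A GC box was present in the sequence of Pnpla3 and is held by 21.2% of windows of that length. No E-box, sterol regulatory element or D-box of these letters was found in the 3 sequences, and over 250 bases these are held by 6.02%, 1.05% and 0.819% of windows. Among the other entries, the NF-Y motif was also found in a window of Acsl1 and in a window of Lpin2. A second Gpam entry held a GC box and no NF-Y motif. The same Acsl1 window had a sterol regulatory element match, and another Lpin2 window had an E-box. No transcript with at least 2% of the reads was found to start at the second Gpam entry or at these last Acsl1 and Lpin2 windows. The windows of Lpin1 and Mogat1 held none of the 5 motifs. They belong to Lpin1-202 (21.3% of reads) and Mogat1-204 (8.07%), not to the main transcripts. A match is a description of the letters, not of binding.

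**Figure D1:**
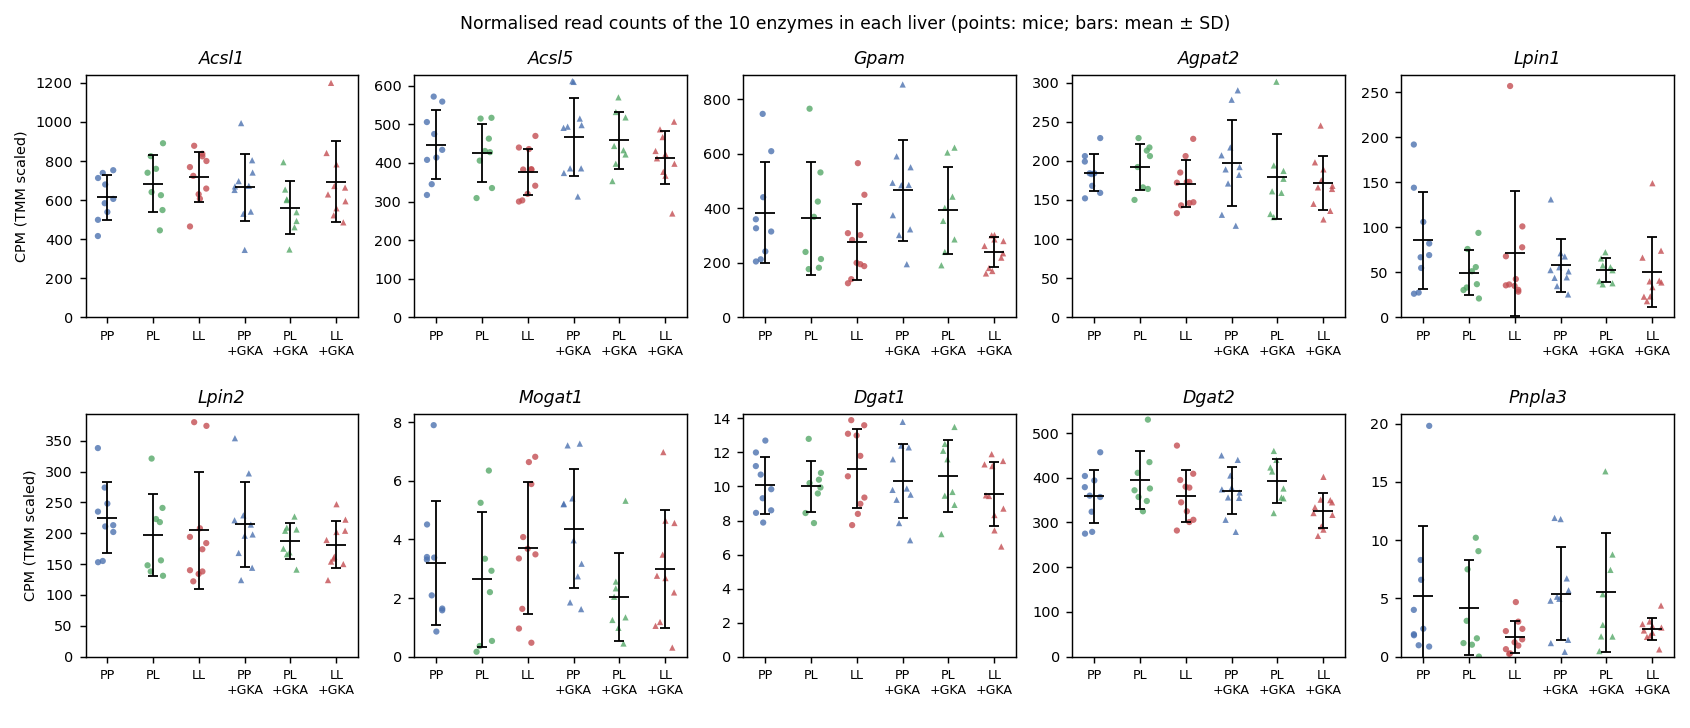
Normalised read counts (CPM, linear axis from 0) of the 10 enzymes by genotype and GKA, with a point for each of 55 mice, circles without and triangles with GKA, and a black bar for the mean ± SD. In LL + GKA the 10 Gpam values lie between 161 and 302 CPM, while PP + GKA reaches 855 CPM, and the ranges of each enzyme overlap between groups.

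The first question was whether the enzymes differed with the 446L allele in the mice without GKA. For LL against PP, 0 of the 10 enzymes were called by edgeR at an adjusted p below 0.05 with a change of 30% (fold of at least 1.3 or at most 0.7), where 0.0854% of 10537 genes were. DESeq2 also called 0, and 2 enzymes (Pnpla3 and Acsl5) had an unadjusted p below 0.05, as did 11.8% of all genes. Shares over all genes, here and below, are those of edgeR, and those of DESeq2 are not given. In the paper, DESeq2 with the same limits called more genes for this comparison than edgeR did here. The log2 fold change was below 0 for 6 of 10 enzymes, with a median of -0.13 beside 0.01 over all genes.

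Pnpla3 had the largest difference. Its lowest, median and highest values were 0.86, 2.39 and 19.8 CPM in PP mice. In PL mice they were 0, 2.32 and 10.2 CPM, and in LL mice 0.232, 1.35 and 4.68 CPM. All 10 LL mice were below the PP mean and 3 were below every PP mouse, but the groups overlapped. The PP mean (5.19 CPM) includes PP mouse 2 at 19.8 CPM and was above the PP median. The log2 fold change for LL against PP was -1.52 (SE 0.56, p 0.013, adjusted p 0.260), and between -1.86 and -0.90 in the fits without 1 mouse. The value of -0.90 (adjusted p 0.577) was that without PP mouse 2. With a score of 16 clock genes as a covariate the log2 fold change was -0.97 (adjusted p 0.517). This clock score differed between the groups, its mean being -0.602 in PP, against 0.554 in PL and 0.487 in LL. It was taken over all livers together without centring by group, and the time of day at harvest is not known. Fits with this covariate, here and below, can therefore not tell genotype and clock state apart. For LL against PL, Pnpla3 differed by -1.26 (SE 0.60, p 0.0476, adjusted p 1), and for PL against PP by -0.27 (SE 0.66).

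Gpam had a lowest, median and highest value of 205, 327 and 747 CPM in PP mice. The values were 177, 305 and 766 CPM in PL mice, against 125, 242 and 566 CPM in LL mice. In LL, 8 of 10 mice were below the PP mean and 5 were below every PP mouse, although the highest LL mouse was above the PP median. The log2 fold change for LL against PP was -0.48 (SE 0.29, adjusted p 0.551), and -0.14 (adjusted p 0.869) with the clock score as a covariate. Acsl5 had medians of 434, 429 and 382 CPM in PP, PL and LL, with ranges of 317 to 572, 309 to 517 and 300 to 470 CPM. The difference for LL against PP was -0.25 (SE 0.12, p 0.0444, adjusted p 0.404), and 9 of 10 LL mice were lower than the mean of PP. It was -0.09 (adjusted p 0.791) with the clock score as a covariate. Acsl1, which feeds fatty acids to oxidation as well as to esterification, had the opposite sign (0.23, SE 0.13, adjusted p 0.509), with a median of 606 CPM in PP mice against 746 CPM in LL mice, of which 8 of 10 were above the PP mean. This difference was 0.51 (adjusted p 0.145) with the same covariate.

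None of the later enzymes passed the test for LL against PP. The medians in PP and LL mice were 184 and 172 CPM for Agpat2, 360 and 361 CPM for Dgat2, 9.84 and 11.2 CPM for Dgat1 and 213 and 179 CPM for Lpin2. Lpin1, whose product is also a coactivator of fatty acid oxidation genes, had medians of 69.1, 44.0 and 39.5 CPM in PP, PL and LL mice, but the range in LL reached from 28.5 to 257 CPM. Mogat1 had medians of 3.31, 2.57 and 3.58 CPM in the same order.

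For PL against PP, 0 of 10 enzymes were called by edgeR or DESeq2, where 0.151% of 10580 genes were called, and 0 had an unadjusted p below 0.05, against 10.1% of all genes. The difference of Lpin1 was the nearest to it (-0.77, SE 0.37, p 0.0501), with 7 of 8 PL mice below the PP mean, and it was -1.62 (adjusted p 0.116) with the clock score as a covariate. For LL against PL, 0 enzymes were called by either tool, where 0.00942% of 10616 genes were, and 1 (Pnpla3) had an unadjusted p below 0.05, as did 4.58% of all genes.

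The same question was asked in the mice with GKA, which were separate animals. For LL + GKA against PP + GKA, 1 of 10 enzymes was called, Gpam, where 0.239% of 10460 genes were called. Gpam fell in LL: its lowest, median and highest values were 195, 486 and 855 CPM in PP + GKA. They were 191, 378 and 623 CPM in PL + GKA, against 161, 248 and 302 CPM in LL + GKA. All 10 LL mice were below the PP mean and 3 were below every PP mouse, and the highest LL mouse was below the PP median. The SD was 184 CPM in PP + GKA and 54.4 CPM in LL + GKA (n = 10 each), and the log2 fold change was -0.95 (SE 0.20, adjusted p 0.0424, fold 0.518). DESeq2 gave an adjusted p of 0.001.

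This call was close to the threshold. The direction held in all 20 fits without 1 mouse, with log2 fold changes between -1.04 and -0.81, but Gpam was called in 7 of them and not in 13, with adjusted p between 0.011 and 0.095. It was not called with the clock score as a covariate (-0.93, adjusted p 0.0948), with a transcript length offset (adjusted p 0.0551), with no filter on low counts (0.0534) or with all 6 groups in 1 fit (0.0847). The clock score, the first principal component of 16 clock genes, was between -2.91 and 1.09 in PP + GKA and between -1.25 and 1.3 in LL + GKA (means -0.879 and 0.039). Macrophage markers summed to 127 to 298 CPM in PP + GKA and 112 to 270 CPM in LL + GKA, and their part in the result was not tested.

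Pnpla3 had the same sign in the mice with GKA and was not called. Its lowest, median and highest values were 0.411, 5.05 and 11.9 CPM in PP + GKA. They were 0.47, 4.03 and 15.9 CPM in PL + GKA, against 0.616, 2.36 and 4.38 CPM in LL + GKA. All 10 LL mice were below the PP mean, but none was below the lowest PP mouse. The log2 fold change was -1.19 (SE 0.42, p 0.00982, adjusted p 0.284) against PP and -1.21 (SE 0.45, p 0.0151, adjusted p 0.456) against PL. With the clock score as a covariate the value against PP was -0.79 (adjusted p 0.593). Of the 10 enzymes, 9 had a log2 fold change below 0 for LL + GKA against PP + GKA, with a median of -0.19 beside 0 over all genes, and 2 (Gpam and Pnpla3) had an unadjusted p below 0.05, as did 10.4% of all genes.

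**Figure D2:**
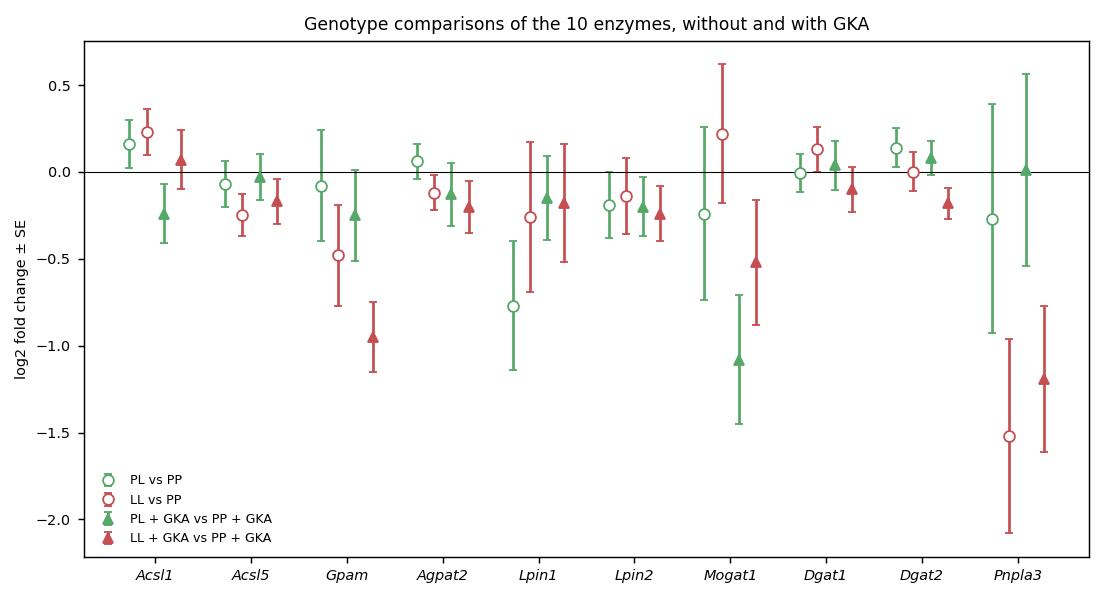
Log2 fold change (± SE) of the 10 enzymes for PL and LL against PP, circles without GKA and triangles with GKA. Pnpla3 lies lowest for LL against PP in both settings (-1.52 and -1.19), and Gpam with GKA (-0.95) is the 1 value that passed the test.

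For LL + GKA against PL + GKA, 0 enzymes were called by edgeR or DESeq2, where 0% of 10491 genes were called, and 3 had an unadjusted p below 0.05, as did 8.6% of all genes. These were Gpam (-0.71, SE 0.21, p 0.00248), Dgat2 (-0.27, SE 0.09, p 0.0069) and Pnpla3. Dgat2 had medians of 370, 395 and 328 CPM in PP, PL and LL with GKA, and 9 of 10 LL mice were below the PL mean. For PL + GKA against PP + GKA, 0 enzymes were called by either tool, where 0% of 10520 genes were called, and 1 had an unadjusted p below 0.05, as did 8.19% of all genes. This was Mogat1 (-1.08, SE 0.37, p 0.00854, adjusted p 0.374), with medians of 4.59 and 1.69 CPM in PP and PL, 7 of 8 PL mice below the PP mean and 4 below every PP mouse. It was -1.64 (adjusted p 0.413) with the clock score as a covariate.

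Over all 55 livers, the number of 446L alleles was fitted as a number with GKA as a covariate. Of the 10 enzymes 1 was called, Gpam, where 3.53% of 11477 genes were called. Gpam fell by 0.36 per allele on the log2 scale (SE 0.10, adjusted p 0.0249). This fit uses the livers of the comparisons above and is not separate evidence. Gpam was called in 54 of 55 fits without 1 mouse, and without PP mouse 6 (747 CPM, the highest value in PP) the adjusted p was 0.0504. With the clock score as a covariate the slope was again -0.36, with an adjusted p of 0.0991. Pnpla3 had a slope of -0.66 (SE 0.21, adjusted p 0.0616), which DESeq2 called (adjusted p 0.02) and edgeR called in 6 of 55 fits without 1 mouse, and Acsl5 had -0.11 (SE 0.042, p 0.0131, adjusted p 0.163). The other 7 enzymes had slopes between -0.11 and 0.07. In a test for a difference anywhere among the 6 groups, 0 enzymes were called by edgeR or DESeq2, where 1.88% of 11477 genes were called, and 2 had an unadjusted p below 0.05 (Gpam with 0.0115 and Pnpla3 with 0.0346), as did 12.7% of all genes.

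The next question was whether GKA altered the enzymes. No enzyme was called in PP, PL or LL by edgeR or DESeq2, where 0% of 10548, 0% of 10399 and 0% of 10458 genes were called, and 0 enzymes had an unadjusted p below 0.05 in any genotype. Gpam had log2 fold changes with GKA of 0.27 (SE 0.26) in PP, 0.11 (SE 0.32) in PL and -0.20 (SE 0.23) in LL. Lpin1 had -0.57 (SE 0.34) in PP, 0.07 (SE 0.26) in PL and -0.49 (SE 0.43) in LL, with medians of 69.1 and 51.7 CPM in PP without and with GKA. Over all genotypes, 0 enzymes were called for GKA by either tool, where 0% of 11477 genes were called, and the differences of the 10 enzymes were between -0.36 (Lpin1, SE 0.22) and 0.25 (Pnpla3, SE 0.33).

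Whether the difference between LL and PP depended on GKA was tested as an interaction on 4 groups. By edgeR and DESeq2 0 enzymes were called, where 0% of 11193 genes were called, and 0 had an unadjusted p below 0.05. For Gpam the interaction was -0.47 (SE 0.36, p 0.203), so that the values of -0.48 without and -0.95 with GKA are not shown to differ. For Pnpla3 it was 0.34 (SE 0.73, p 0.645), and for Mogat1, with 0.22 without and -0.52 with GKA, it was -0.74 (SE 0.56, p 0.198).

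The enzymes were then compared between mice of the same group, because their spread within groups was wide. Pearson r was computed over 55 mice on log2 CPM centred within the 6 groups, with permutation within groups and adjustment over 45 pairs. Of the 45 pairs, 18 were correlated at an adjusted p below 0.05, of which 14 were positive, and the median r over all pairs was 0.16. The 2 values of a pair come from the same library and share its depth.

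Gpam, Pnpla3 and Acsl5 varied together. Gpam and Pnpla3 had r = 0.75 (rho 0.77, permutation p 1e-05 for both, the smallest the permutations can give, adjusted p 0.000112), Acsl5 and Pnpla3 had r = 0.74 (rho 0.74) and Acsl5 and Gpam had r = 0.72 (rho 0.73), each with the same p. Without the 2 mice farthest from the median of the measure on the x axis, r was 0.72, 0.71 and 0.74. With the clock score regressed out, these r were 0.75, 0.74 and 0.72. On the log2(TPM + 1) scale they were 0.52, 0.48 and 0.59, all with an adjusted p below 0.05.

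Lpin1 and Lpin2 formed the other close pair (r = 0.77, rho 0.74, permutation p 1e-05, adjusted p 0.000112), and r was 0.73 without the 2 mice farthest out. Lpin2 was also correlated with Gpam (r = 0.48, rho 0.50, adjusted p 0.00319). The terminal acyltransferases were related to Agpat2 (Dgat1 with r = 0.49, Dgat2 with r = 0.47) and to each other (r = 0.35, rho 0.40, permutation p 0.0116, adjusted p 0.0326). Dgat2 had r = -0.02 with Pnpla3 and -0.22 with Gpam, neither past the threshold, but r with Gpam was 0.46 (adjusted p 0.00507) on the log2(TPM + 1) scale. Mogat1 was correlated with Gpam (0.47), Acsl5 (0.43), Lpin2 (0.42) and Pnpla3 (0.40). The 4 negative pairs all involved Acsl1, with Agpat2 (r = -0.47, rho -0.49, adjusted p 0.0043), Pnpla3 (-0.41), Dgat1 (-0.35) and Lpin1 (-0.33). On the log2(TPM + 1) scale none of these 4 passed (r of -0.08, -0.02, -0.21 and -0.03), and neither did Agpat2 with Dgat1 (0.27) or Dgat2 (0.20) or Dgat1 with Dgat2 (0.09), whereas Lpin1 with Lpin2 (0.68) and Gpam with Lpin2 (0.69) did. Of the 45 pairs, 8 no longer passed and 16 others passed on that scale, 9 of these with the opposite sign. With the clock score regressed out 3 pairs no longer passed, Acsl1 with Lpin1 (-0.16), Acsl1 with Dgat1 (-0.24) and Dgat1 with Dgat2 (0.26), and 7 others passed. With PP mouse 7 kept, Acsl1 with Dgat1 and with Lpin1 did not pass.

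**Figure D3:**
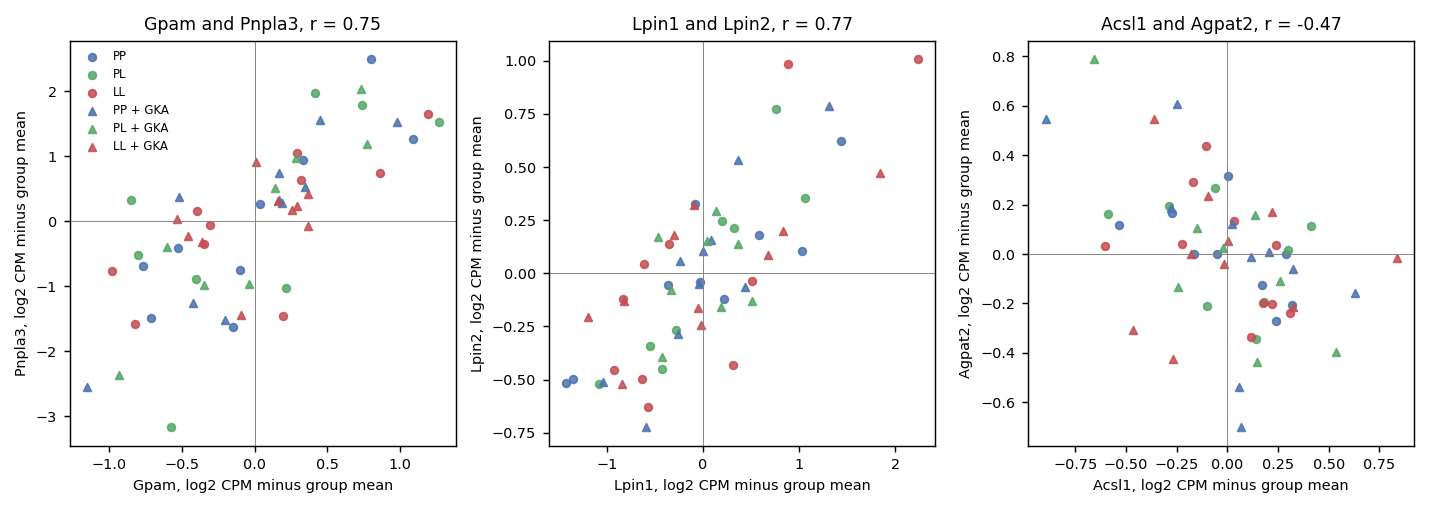
Log2 CPM minus the group mean for 3 pairs of enzymes, with a point for each of 55 mice, coloured by genotype, circles without and triangles with GKA. Gpam and Pnpla3 rise together (r = 0.75), as do Lpin1 and Lpin2 (r = 0.77), whereas Acsl1 and Agpat2 are related inversely (r = -0.47), which was -0.08 on the log2(TPM + 1) scale.

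The genes most like each enzyme over the same 55 mice, out of 7840 genes with a mean of at least 5 CPM, are given as a description. These r are on the log2 CPM scale only, and whether they hold on the TPM scale was not tested. Gpam was most like Fasn (r = 0.92), fatty acid synthase, and Acaca (r = 0.89), acetyl-CoA carboxylase. Pnpla3 was most like Acly (r = 0.86), ATP citrate lyase, and Chrna4 (r = 0.80). Acsl5 was most like Elovl5 (r = 0.89), a fatty acid elongase, and Aqp8 (r = 0.83). Agpat2 was most like Khk (r = 0.82), the fructose-phosphorylating ketohexokinase, and Pdhb (r = 0.77), a subunit of pyruvate dehydrogenase. Lpin2 was most like Mknk2 (r = 0.84) and then Lpin1, and Lpin1 was most like Lpin2 and then the clock gene Per1 (r = 0.71). Mogat1 was most like Fitm1 (r = 0.83) and Lgals1 (r = 0.83). Acsl1 was most like Cluh (0.76) and Cpeb4 (0.75), Dgat1 like Tmem205 and Znhit1 (0.74 each) and Dgat2 like Prodh (0.83) and Aspscr1 (0.81).

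Each enzyme was also set against 8 regulators of lipid metabolism and the clock score, which made 90 relations. Of these 30 passed at an adjusted p below 0.05, of which 16 were positive. On the log2(TPM + 1) scale (the TPM scale here) 12 of them turned in sign, which is given beside the value. Pparg, a nuclear receptor that rises in fatty liver, was correlated with Mogat1 (r = 0.64, rho 0.71, permutation p 1e-05, adjusted p 0.0003), Gpam (r = 0.51, rho 0.52, adjusted p 0.0017) and Lpin2 (r = 0.36, adjusted p 0.0244), and inversely with Dgat2 (r = -0.47, rho -0.44, adjusted p 0.00504; 0.25 on the TPM scale). Nr3c1, the glucocorticoid receptor, was correlated with Acsl1 (r = 0.69, rho 0.66, adjusted p 0.0003) and inversely with Dgat1 (-0.64; -0.07 on the TPM scale), Agpat2 (-0.55; 0.25 on the TPM scale) and Mogat1 (-0.41; 0.16 on the TPM scale).

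Ppara, the receptor that drives fatty acid oxidation genes, was positively related to Acsl1 (r = 0.54, rho 0.46, adjusted p 0.0009) and Lpin2 (0.34), and inversely to Dgat1 (-0.64; -0.25 on the TPM scale), Agpat2 (-0.59; -0.10 on the TPM scale) and Dgat2 (-0.42; 0.66 on the TPM scale). Srebf1 was related to Mogat1 (0.36) and Dgat2 (0.35) and inversely to Acsl1 (-0.47; 0.36 on the TPM scale), and it had r = 0.28 with Gpam and 0.14 with Pnpla3, neither past the threshold. Mlxipl, which encodes ChREBP, was related to Mogat1 (-0.37; 0.14 on the TPM scale) and to no other enzyme past the threshold. Nr1h3, the liver X receptor, was positively related to Dgat2 (0.52), Agpat2 (0.42) and Dgat1 (0.39; -0.16 on the TPM scale) and inversely to Lpin2 (-0.35; 0.19 on the TPM scale) and Mogat1 (-0.35; 0.34 on the TPM scale). Hnf4a was positively related to Acsl1 (0.43) and inversely to Agpat2 (-0.43; 0.38 on the TPM scale) and Mogat1 (-0.39; 0.28 on the TPM scale). Ppargc1a was related to Lpin1 alone (0.35).

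The clock score was related to Lpin1 (r = 0.44, rho 0.45, adjusted p 0.00585), Lpin2 (0.36) and Dgat2 (0.35; -0.05 on the TPM scale) and inversely to Acsl1 (-0.46). It had r = -0.13 with Gpam and -0.12 with Pnpla3, neither past the threshold. None of the 8 regulators was called in any of the 13 comparisons by edgeR. The nearest in the mice without GKA was Srebf1 for LL against PP (0.46, SE 0.16, p 0.0103, adjusted p 0.242), with medians of 178 and 277 CPM in PP and LL mice, opposite in sign to Gpam and Pnpla3. For LL + GKA against PP + GKA the difference of Srebf1 was 0.034 (SE 0.24).

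**Figure D4:**
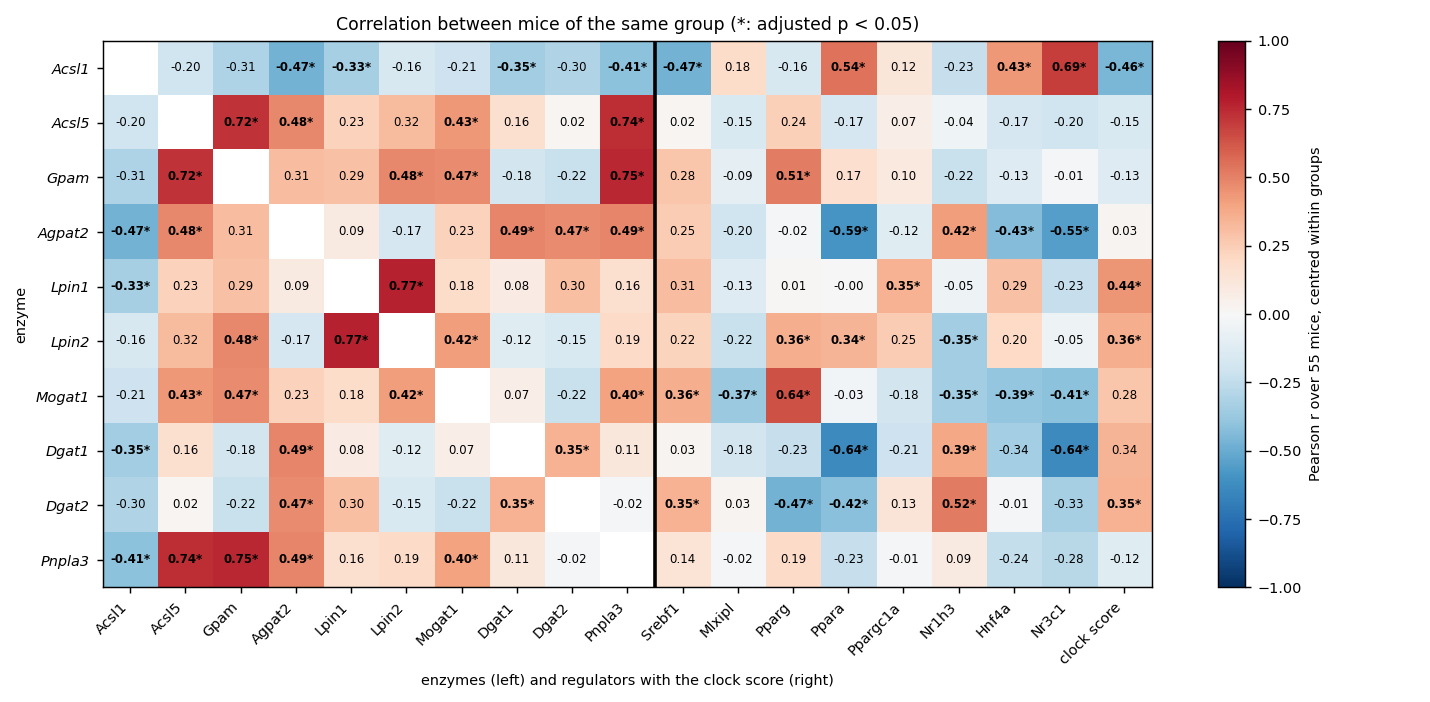
Pearson r over 55 mice of log2 CPM centred within groups, for each enzyme (rows) against the other enzymes (left of the line) and against 8 regulators and the clock score (right), with red for positive and blue for negative values and a star where the adjusted p is below 0.05. Gpam, Acsl5 and Pnpla3 have r of 0.72 to 0.75 with each other, and Acsl1 has negative r with each of the other 9 enzymes, of which 5 turn positive on the log2(TPM + 1) scale.

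Gene sums can hide a change of transcript. Most reads of Gpam (96.3%), Dgat2 (94.1%), Lpin2 (89.5%), Pnpla3 (88.4%), Acsl5 (88.2%), Acsl1 (81.1%) and Agpat2 (77.9%) were on 1 transcript, while the main transcript held 61.5% for Dgat1, 61.4% for Lpin1 and 56% for Mogat1. Of 20 tests of this share (10 enzymes in LL against PP mice, either without GKA or with it), 0 passed by permutation test at an adjusted p below 0.05 and 2 had an unadjusted p below 0.05. The share of Acsl5-201 was 86.1 ± 3.98% (SD, n = 9) in PP and 89.7 ± 2.51% (SD, n = 10) in LL (exact permutation p 0.029, adjusted p 0.290). The share of Pnpla3-201 was 92.5 ± 5.91% (SD, n = 10) in PP + GKA and 84.6 ± 7.65% (SD, n = 10) in LL + GKA (permutation p 0.0177, adjusted p 0.290). Pnpla3 lay between 0.616 and 4.38 CPM in LL + GKA, so its share there rests on few reads.

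Of 39 other glycerolipid genes, 34 or 35 were tested, depending on the comparison. For LL against PP without GKA 0 of 34 were called, and with GKA 1 of 35 was called (0.239% of all genes), Acsl3, another long-chain acyl-CoA synthetase, whose exons overlap those of Utp14b (27% as many reads, same strand). Acsl3 had a lowest, median and highest value of 10.5, 14.0 and 20.2 CPM in PP + GKA and 6.79, 9.32 and 10.8 CPM in LL + GKA, and 8 of 10 LL mice were below every PP mouse. Its log2 fold change was -0.73 (SE 0.12, adjusted p 0.0108). Without GKA it was -0.57 (SE 0.27, adjusted p 0.420).

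In the fit of the allele number, 5 of the 35 tested were called, where 3.53% of all genes were, 3 with a positive and 2 with a negative slope. This is the same fit as for Gpam and uses the same livers. Whether these 5 calls hold with the clock score, with DESeq2 or without 1 mouse is not given here. Pnpla2, adipose triglyceride lipase, rose by 0.20 per allele (SE 0.048, adjusted p 0.00805) and its inhibitor G0s2 rose by 0.29 (SE 0.09, adjusted p 0.0409). The fatty acid transporter and synthetase Slc27a2 rose by 0.13 (adjusted p 0.0222). Acsl3 fell by 0.32 (adjusted p 0.0162) and Plpp1, a lipid phosphate phosphatase, by 0.27 (adjusted p 0.0436). Plpp1 is uncertain where strand was not used, as its exons overlap those of Mtrex, on the other strand and with 363% as many reads. Plpp3, of the same family, was the 1 of 35 called in the test among the 6 groups (adjusted p 0.00392, where 1.88% of all genes were called), with differences from PP of 0.38 (SE 0.11) in PL and 0.14 (SE 0.09) in LL without GKA and 0.45 (SE 0.11) and 0.33 (SE 0.10) with GKA. Gpat4, the endoplasmic reticulum counterpart of Gpam, had the smallest p of these genes for LL against PP without GKA (0.42, SE 0.12, p 0.00162, adjusted p 0.126) and a difference of 0.019 (SE 0.14) with GKA.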

How the data were processed

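Livers of 56 mice were measured by RNA-seq, and each sample is a separate mouse named by its label. Per the paper and labels, the authors used RNA with RIN above 6, checked reads with FastQC, did no trimming and quantified transcripts with Salmon 1.4.0 against GENCODE M26 (GRCm39); use of strand is not given in the sources used here. The deposited values are expected counts (NumReads) and TPM per transcript, with lengths. Transcripts were assigned to genes by their identifiers in a GENCODE annotation of the same build (137570 of 139225, holding 99.8 to 99.9% of reads), and expected counts were summed per gene and rounded.

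Comparisons were fitted with edgeR 4.0.16 (quasi-likelihood, TMM, filterByExpr, R 4.3.3) on the groups compared, with Benjamini-Hochberg adjustment over all genes tested. A gene was called at an adjusted p below 0.05 and a fold of at least 1.3 or at most 0.7; the test among 6 groups, the allele number and the interaction had no fold limit. CPM are TMM scaled, and a prior count of 2 was used on the log2 scale. The SE of a log2 fold change was derived as its absolute value divided by the square root of the F statistic of the edgeR test. Relations between genes used permutation within groups (100000), with SciPy 1.17.1 used for single values. Scripts were tested on simulated data. DESeq2 1.42.0, other size factors, no filter, a transcript length offset, the clock score as covariate, PP mouse 7 kept and each mouse left out were alternatives. The allele-number fits without 1 mouse were added after seeing the data.

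The named genes were the 10 members, all 8 regulators, the other listed glycerolipid genes called in any comparison or among the 3 smallest p for LL against PP without or with GKA, and the 2 genes most like each member. The members and lists were chosen with earlier results of these data known.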

Additional observations from a re-analysis of the deposited data

Results flagged for a closer look

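Acsl5 in LL + GKA mouse 53 was at 269 CPM, apart from the other 9 mice of the group at 367 to 507 CPM (gap over range 0.488 on log2 CPM). Pnpla3 in the same mouse was at 0.616 CPM, with the other 9 at 1.69 to 4.38 CPM (gap over range 0.475). These were 2 flags in 60 groups of values, where chance gives about 1 in 20 if the groups are separate. Both were in the same mouse, and the 2 genes varied together (r = 0.74), so the flags are not separate.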

How the results depend on the processing

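No paired analysis was possible because the mouse numbers are unique and no number is shared between groups. Of 750 member values under alternatives other than leaving out a mouse, 719 kept their direction and side of the threshold, 25 turned in sign, 5 were no longer called and 1 became called; the causes were not tested. For LL + GKA against PP + GKA, Gpam was the 1 enzyme called, and 0 were called with no filter (-0.96, adjusted p 0.0534), the length offset (-0.98, 0.0551), the clock score (-0.93, 0.0948) or all 6 groups in 1 fit (-0.96, 0.0847), against DESeq2 (0.001) and RLE size factors (0.0419), which kept it. Without 1 mouse the count was 0 to 1: Gpam was kept without LL + GKA mice 47, 48 and 54 and PP + GKA mice 12, 13, 14 and 19, and lost without each of the other 13. For the allele number, 2 were called by DESeq2 (Gpam, and Pnpla3 with -0.69) and 0 with the clock score (Gpam -0.36), and 0 to 2 without 1 mouse, with Pnpla3 called without PP mouse 4, PP + GKA mice 13 and 14, PL mouse 27, PL + GKA mouse 32 or LL mouse 40. For LL against PP and PL against PP the count was 0 without any 1 mouse.

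Leaving out 1 mouse also turned 35 of 1110 values in sign, none of them called. These ranged from -0.06 to 0.049 for Dgat2 for LL against PP; for PL against PP from -0.33 to 0.10 for Gpam, -0.55 to 0.08 for Mogat1, -0.06 to 0.038 for Dgat1 and -0.60 to 0.35 for Pnpla3; for LL + GKA against PP + GKA from -0.05 to 0.15 for Acsl1 and -0.54 to 0.036 for Lpin1; and for the allele number from -0.0087 to 0.019 for Dgat1. None of the values that turned in sign under the other alternatives was called. With the clock score these were Dgat1 (-0.17) and Dgat2 (-0.20) for LL against PP, Agpat2 (-0.036) and Dgat2 (-0.025) for PL against PP, Acsl5 (0.00049) and Dgat1 (-0.13) for PL + GKA against PP + GKA, Lpin1 (0.10) for LL + GKA against PL + GKA, Pnpla3 for GKA in PP (-0.12), Dgat1 for the allele number (-0.044) and Mogat1 for GKA over all genotypes (0.025). With the length offset they were Dgat2 for LL against PP (-0.033), Dgat1 for PL against PP (0.47), LL against PL (-0.28), LL + GKA against PP + GKA (0.19), GKA in PP (-0.10), GKA in PL (-0.19) and the interaction (0.012), Dgat2 for GKA in PL (0.0063), and Agpat2 for GKA in LL (-0.029) and over all genotypes (-0.015). Dgat2 for LL against PP was -0.0023 with DESeq2, -0.0021 with RLE size factors and -0.015 with no filter, Agpat2 for GKA in LL was -0.0028 with no filter, and Dgat1 for PL against PP was 0.039 with PP mouse 7 kept. Pairs of enzymes past the threshold numbered 16 to 26 under the alternatives, and relations with regulators 30 to 41. Low read numbers limit Pnpla3 and Mogat1.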

Other observations

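PP mouse 7, which was in no comparison above, was below the range of the other PP mice for 3 enzymes when scaled together with them: Acsl1 at 307 CPM (others 419 to 756), Dgat2 at 230 CPM (others 275 to 459) and Dgat1 at 6.96 CPM (others 7.89 to 12.7). The other 7 enzymes were within the PP range, with Gpam at 281 CPM (others 207 to 751) and Pnpla3 at 4.35 CPM (others 0.863 to 19.9).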
